A study of Homo sapiens with 12 samples.

Results

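The genes described here encode 10 proteins that coat, fill or empty lipid droplets: *PLIN2*, *PLIN3*, *PLIN4*, *PLIN5* and *CIDEC* on the droplet surface, *DGAT1* and *DGAT2* in triglyceride synthesis, and *PNPLA2*, *ABHD5* and *HILPDA* in triglyceride breakdown. They were chosen by symbol, and all 10 were found among the 45478 gene rows of the count table. The study sequenced mRNA from 12 libraries of clear cell renal cell carcinoma (ccRCC) lines, 3 for each of 4 groups. A498 and 786-O are established ccRCC lines that the study describes as deficient in VHL, the tumour suppressor that marks hypoxia-inducible factors for destruction. From each, a line labelled sunitinib-resistant was derived by selection in sunitinib, a multi-target inhibitor of receptor tyrosine kinases, at 4 µM for 786-O and 2 µM for A498 over 4 months or more than 20 passages. All 12 libraries carry the treatment label none and a title code with veh, which the titles do not spell out. The study's methods do not say whether sunitinib was in the medium at harvest. Each group has a batch label of its own, so batch and group cannot be told apart.

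A lipid droplet is a store of neutral lipid wrapped in a single phospholipid layer and a protein coat. Perilipins (PLIN) make up much of the coat and limit the access of lipases. DGAT1 and DGAT2 add the last fatty acid to make triglyceride. PNPLA2, also called ATGL, removes the first fatty acid, ABHD5 (CGI-58) activates it, and HILPDA and G0S2 inhibit it. The clear cytoplasm that names ccRCC comes from stored lipid and glycogen, and *PLIN2* and *HILPDA* are known as targets of hypoxia-inducible factors.

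The sequences upstream of *PLIN2* and *PLIN3* are shown because these are the 2 most highly expressed members and their levels moved in opposite directions in resistant 786-O. Each is the 250 bases before the RefSeq start (GRCh38.p14), written 5′ to 3′ on the strand of the gene, for *PLIN2* chr9:19127493-19127742 on the minus strand and for *PLIN3* chr19:4867668-4867917 on the minus strand. The *PLIN2* window lies within the GENCODE 44 span of the gene, which has longer transcript models. Capitals mark ACGTG on either strand, a form of the core of the hypoxia response element, and the flanking C that makes a second match part of the palindrome CACGTG. The form GCGTG was not searched for and is not marked, though it occurs in both sequences.
PLIN2: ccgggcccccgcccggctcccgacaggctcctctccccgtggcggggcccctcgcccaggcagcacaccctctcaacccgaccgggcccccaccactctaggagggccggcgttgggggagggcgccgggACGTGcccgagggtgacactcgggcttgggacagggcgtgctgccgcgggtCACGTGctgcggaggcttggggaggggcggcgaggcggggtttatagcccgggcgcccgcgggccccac
PLIN3: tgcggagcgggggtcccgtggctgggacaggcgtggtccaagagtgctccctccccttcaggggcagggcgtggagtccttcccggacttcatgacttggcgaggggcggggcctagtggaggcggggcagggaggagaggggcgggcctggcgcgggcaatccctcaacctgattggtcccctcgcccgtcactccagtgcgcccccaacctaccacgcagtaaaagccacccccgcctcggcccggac

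The *PLIN2* window held 3 matches to ACGTG, at 120, 69 and 68 bases before the start, and the last 2 are the overlapping strands of 1 CACGTG. The windows matched for the other members (*PLIN3*, *PLIN4*, *PLIN5*, *PNPLA2*, *CIDEC* and *ABHD5*) held none. Over all 35116 windows of this length, 18.5% held ACGTG and 6.34% held CACGTG. These matches describe letters, and no binding was measured.

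Total counts ranged from 20042519 to 47972092 per library. The libraries labelled resistant A498 went against their label: over 19929 genes their log2 levels correlated with the parental A498 libraries at a median r of 0.87, with parental 786-O at 0.951 and with resistant 786-O at 0.982. Of genes read in parental A498 and not in parental 786-O, 62 in number, the median kept 0.362% of the parental A498 level in the libraries labelled resistant A498. Of the 33 genes with the opposite pattern, the median stood at 94.6% of its parental 786-O level. Results for these libraries are therefore given against both parental lines, and the comparisons against parental 786-O share control libraries. The kidney lineage factor *PAX8* was at 200 to 312 CPM (counts scaled to a common library total by TMM) as group means, while *CA9*, a common ccRCC marker, had at most 2 counts in any library outside parental A498 and a mean of 1.29 CPM in parental A498. Of the adipocyte markers, *ADIPOQ* had no more than 1 count and *LEP* no more than 3 counts in any library, while *PLIN1* was at 0.113 to 0.263 CPM, *FABP4* at 0.0508 to 1.00 CPM and *LIPE*, which many tissues express, at 0.611 to 3.52 CPM as group means. Of the leukocyte markers, *PTPRC* had no more than 3 counts and *CD3E* no more than 1 in any library, while *CD8A* had 20 to 26 counts in the resistant 786-O libraries against 4 to 6 in parental 786-O, and *CD14* and *CD68* were highest in parental A498 at means of 0.845 and 1.08 CPM. The part of these low marker counts in the results was not tested.

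On GRCh38 (GENCODE 44) *PLIN2* lies at chr9:19108375-19149290. The other perilipin members share a stretch of chromosome 19, with *PLIN4* at chr19:4502192-4518486, *PLIN5* at chr19:4522531-4535224 and *PLIN3* at chr19:4838341-4867694. *PNPLA2* (chr11:818914-825573) and *DGAT2* (chr11:75759512-75801535) are on chromosome 11, *CIDEC* (chr3:9866711-9880255) and *ABHD5* (chr3:43690108-43734371) on chromosome 3, *HILPDA* on chromosome 7 (chr7:128455849-128458418) and *DGAT1* on chromosome 8. Counts were taken over exons of each whole gene. In the annotation *PLIN5* shares 1047 exon bases with 1 other gene on its strand. Exons of *PLIN3*, *PLIN4*, *DGAT1*, *DGAT2*, *PNPLA2* and *ABHD5* overlap those of genes on the opposite strand, for *PLIN4* those of *HDGFL2*. Whether reads from the opposite strand entered the counts was not tested.

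To compare genes, levels were set per kilobase of exon (RPKM). *PLIN3* was the most abundant member on this scale in every group, with means of 112 RPKM in parental A498, 85.3 in resistant A498, 95.1 in parental 786-O and 81.3 in resistant 786-O. *PLIN2* was second in every group, with means from 96.2 RPKM in parental A498 down to 29.9 in parental 786-O. *PNPLA2* came next in every group at 17.6 to 25.7 RPKM. *DGAT1*, *HILPDA* and *ABHD5* lay between 2.49 and 8.87 RPKM and changed places among the groups, *DGAT2* between 0.980 and 1.86 RPKM, and *PLIN4* between 0.194 and 0.312 RPKM.

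**Figure D1:**
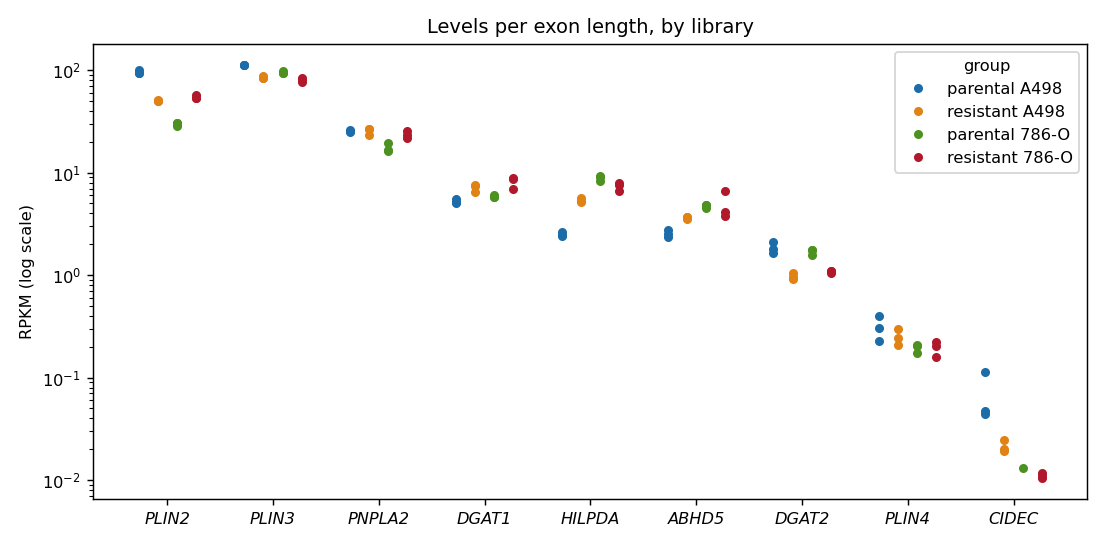
RPKM of each library (points, log scale on the vertical axis) for 9 members in the 4 groups; values of 0 are not drawn and *PLIN5* is left out. *PLIN2* and *PLIN3* lie at the top, *DGAT2* near 1 RPKM and *CIDEC* below 0.2 RPKM.

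The droplet proteins of fat and oxidative tissues were at or near the floor of detection. *PLIN5*, a perilipin of oxidative tissues, had 0 counts in 11 libraries and 2 counts in the resistant A498 replicate 3 library. *CIDEC*, which fuses droplets in fat cells, had 3, 2 and 6 counts in parental A498, 1 count in each resistant A498 library, 0, 1 and 0 in parental 786-O, and 1 in each resistant 786-O library. Neither passed the filter on low counts, so 8 of the 10 members were tested. A total of 3 counts over the 3 libraries of a group corresponds to 0.0217 to 0.0409 CPM, and differences below that level were not detectable at this depth. That level is not the limit of the test. *CIDEC* in parental A498 lay above it, at a mean of 0.1335 CPM, and was still left out by the filter.

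In resistant against parental 786-O, the comparison of the selected line with its parent, *PLIN2*, *DGAT1* and *PNPLA2* were higher and *PLIN3*, *DGAT2* and *HILPDA* were lower (6 of 8 tested members, adjusted p under 0.05). Over all genes 68.5% passed the same test, 35% higher and 33.5% lower, so the share of members is near the background. The calls over all genes were 51.1% in the higher direction, and 62.5% when libraries were scaled by total count alone, a change that moved the median of all genes from 0.03 to 0.18 (log2). The median of the 8 members was 0.02 against 0.03 for all genes tested. Libraries did not overlap for 6 of the 8, against 68.9% of all genes. No member changed by more than a log2 of 1, while 22% of all genes were called and did.

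**Figure D2:**
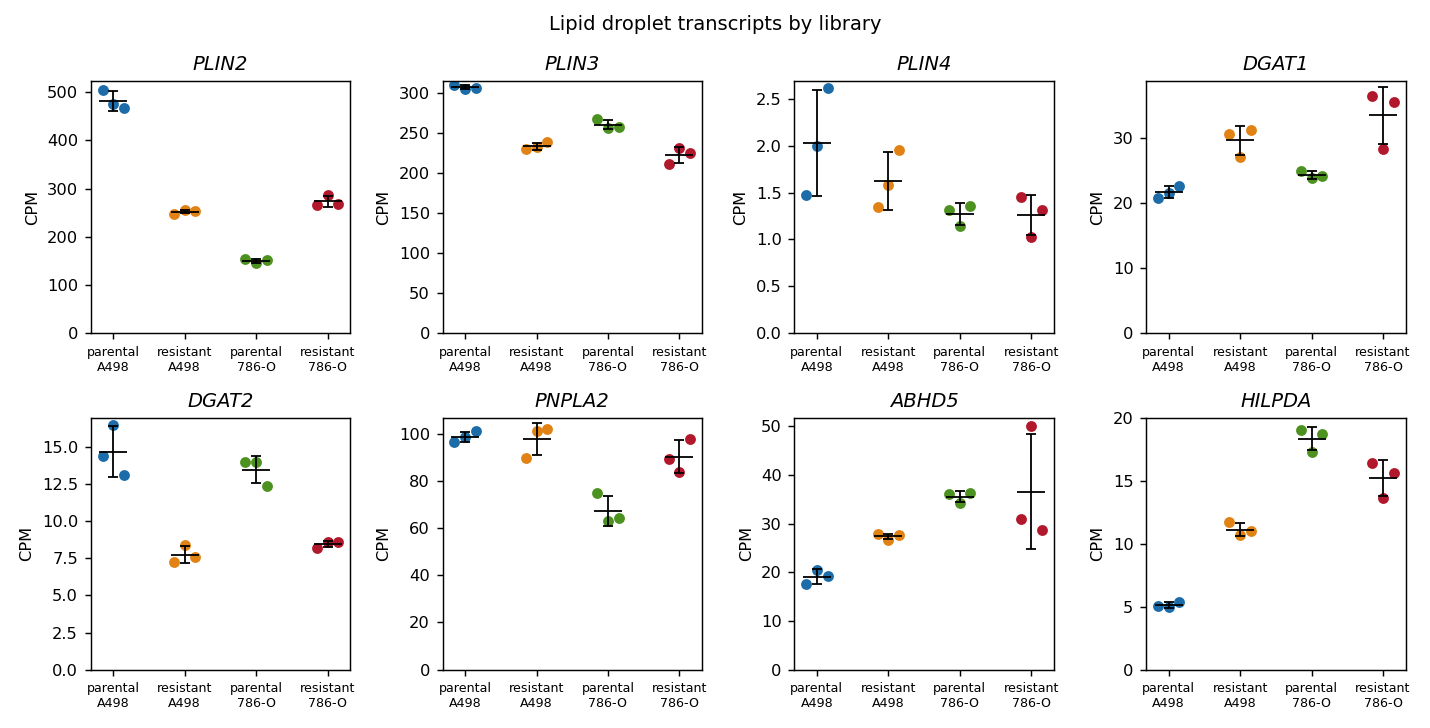
TMM-scaled CPM (vertical axes, from 0) of the 8 tested members in each library of the 4 groups; points are libraries, and black bars are the mean and SD of 3. *PLIN2* is lowest in parental 786-O and highest in parental A498, *DGAT2* is lower in both groups selected in sunitinib, and 1 *ABHD5* library of resistant 786-O stands above the others.

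*PLIN2*, the droplet coat protein found in most cell types, had 152.9, 144.4 and 152.6 CPM in the parental 786-O libraries and 266.5, 286.4 and 268.2 in resistant 786-O. Every resistant 786-O library was above every parental 786-O library, and in such bulk samples more expressing cells and more RNA per cell cannot be told apart. The level was 1.83-fold higher (log2 fold change 0.87, SE 0.046, adjusted p = 5e-10). The value stayed between 0.86 and 1.01 under the alternative scalings, filters and count models, and between 0.83 and 0.91 when any 1 library was left out. The unadjusted 2-sample test of raw counts, which does not scale for depth, gave 1.05 and called it as well. Of all genes tested, 27.8% had a larger absolute change.

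The libraries labelled resistant A498 had 248, 255.1 and 253.3 CPM of *PLIN2*. These values were also above parental 786-O (log2 fold change 0.75, SE 0.047, adjusted p = 2.8e-09), though not on unscaled raw counts (0.02, not called), and were far below parental A498 at 505.2, 474.8 and 466.4 CPM (−0.94, SE 0.047, adjusted p = 9.4e-11). On raw counts the difference from parental A498 was −1.13 and was not called either. The direction of the *PLIN2* difference therefore depended on which parental line was the reference. The 4 groups took the order parental 786-O, resistant A498, resistant 786-O and parental A498, with neighbours separated in every library. The resistant A498 and resistant 786-O groups were the closest pair (−0.12, SE 0.046, adjusted p = 0.048), and that call was lost under several alternatives, for example at adjusted p = 0.079 with DESeq2 size factors.

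*PLIN3*, a perilipin that moves between cytosol and droplet, was the mirror image in resistant 786-O but with a small change. It had 267.4, 256.1 and 258.1 CPM in parental 786-O and 211.1, 231.1 and 225.6 in resistant 786-O, a fall by 0.23 on the log2 scale (SE 0.043, adjusted p = 0.00025). The groups did not overlap, and the call was lost when libraries were scaled by total count alone (−0.08, adjusted p = 0.071). Resistant A498, at 230, 232.3 and 238.5 CPM, was lower than parental 786-O by a small margin (−0.16, SE 0.043, adjusted p = 0.005; −0.01, adjusted p = 0.91 with library size alone). It was also lower than parental A498, which had 310, 305.1 and 306.8 CPM (−0.40, SE 0.043, adjusted p = 7.9e-07), a call lost after removal of a GC and length trend (−0.06, adjusted p = 0.15). With that trend removed the fall in resistant 786-O was larger (−0.45, adjusted p = 3.6e-08). Between the parents *PLIN3* was lower in 786-O (−0.24, SE 0.043, adjusted p = 0.00013) and turned with the trend removed (0.10, adjusted p = 0.016).

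The ratio of *PLIN2* to *PLIN3* within a library was 0.315 ± 0.00774 (SD, n = 3) in parental 786-O and 0.673 ± 0.0207 in resistant 786-O, a 2.14-fold difference in RPKM ratios. It was 0.590 ± 0.00988 in resistant A498 and 0.857 ± 0.0303 in parental A498. This ratio and the others below were chosen after the values were seen, and none was recomputed with the GC and length trend removed. Groups of 3 against 3 cannot go below a two-sided exact permutation p of 0.1, and the adjusted value over 20 such tests was 0.125 wherever libraries did not overlap.

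*PLIN4*, an adipocyte perilipin with low counts here (71 at most in a library), had 1.32, 1.14 and 1.35 CPM in parental 786-O and 1.45, 1.03 and 1.31 in resistant 786-O. The libraries overlapped and no difference was detected (log2 fold change −0.00, 95% interval −0.43 to 0.42, adjusted p = 0.99), an interval that leaves room for a change of moderate size. Resistant A498 had 1.342, 1.579 and 1.956 CPM and parental A498 had 1.48, 2.00 and 2.61, again overlapping (−0.30, interval −0.75 to 0.14, adjusted p = 0.24). Between the parents 786-O was lower (−0.66, SE 0.22, adjusted p = 0.013), and that call was lost with the GC and length trend removed (−0.01, adjusted p = 0.98), without parental A498 replicate 3 (−0.42, adjusted p = 0.11) and without parental 786-O replicate 2 (−0.58, adjusted p = 0.051).

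The acyltransferases moved apart. *DGAT2*, which works at the droplet surface on newly made fatty acids, fell from 13.99, 13.97 and 12.4 CPM in parental 786-O to 8.21, 8.61 and 8.57 in resistant 786-O (log2 fold change −0.67, SE 0.089, adjusted p = 9.7e-06). The resistant A498 libraries had 7.27, 8.37 and 7.59 CPM, below parental 786-O (−0.80, SE 0.096, adjusted p = 3.3e-06) and below parental A498 at 14.36, 16.5 and 13.13 CPM (−0.92, SE 0.097, adjusted p = 5.5e-07). The groups did not overlap in these 3 comparisons, and the *DGAT2* calls held under every scaling, filter and count model tried, though none reached a log2 change of 1 with TMM scaling. The parental lines overlapped (−0.12, 95% interval −0.30 to 0.05, adjusted p = 0.23), and so did the selected groups (−0.13, interval −0.32 to 0.06, adjusted p = 0.29).

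*DGAT1*, the endoplasmic reticulum enzyme, had 24.93, 23.74 and 24.14 CPM in parental 786-O and 36.34, 28.3 and 35.53 in resistant 786-O (log2 fold change 0.46, SE 0.085, adjusted p = 2e-04). It had 20.73, 21.48 and 22.62 CPM in parental A498 and 30.57, 26.99 and 31.1 in resistant A498 (0.46, SE 0.09, adjusted p = 0.00033), and resistant A498 was above parental 786-O as well (0.29, SE 0.087, adjusted p = 0.01). The libraries did not overlap in these 3 comparisons. The transcript is 63.2% GC, and with a GC and length trend removed the resistant 786-O call was gone (0.00, adjusted p = 1.0), as was the one against parental 786-O for resistant A498 (0.12, adjusted p = 0.22), while the difference from parental A498 grew to 0.94. Whether GC content had a part in these differences was not tested. In GENCODE 44, 451 exon bases of *DGAT1* are shared with 2 genes on the same strand, so some reads there cannot be assigned.

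The ratio of *DGAT1* to *DGAT2* was 3.46 ± 0.240 in parental 786-O and 2.85 ± 0.410 in parental A498, overlapping between the parents. It was 7.56 ± 1.13 in resistant 786-O and 7.35 ± 1.03 in resistant A498, and no library of the selected groups reached as low as any parental one.

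**Figure D3:**
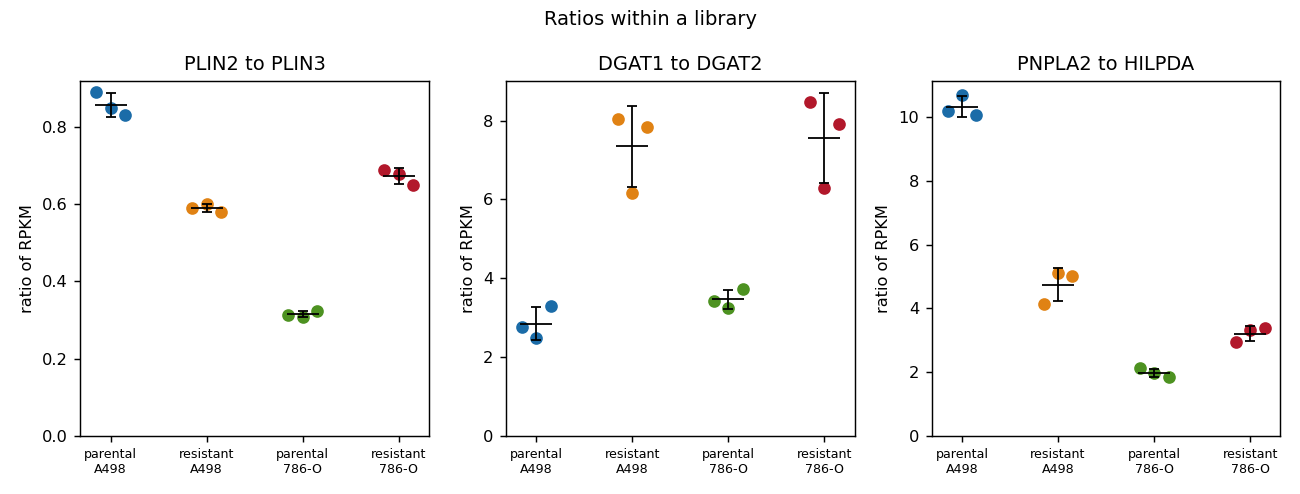
Ratios of RPKM within a library (vertical axes, from 0) for 3 pairs of members; points are libraries, bars are the mean and SD of 3. *PLIN2* to *PLIN3* is lowest in parental 786-O, *DGAT1* to *DGAT2* is above 6 in every library of both selected groups and below 4 in every parental one, and *PNPLA2* to *HILPDA* is highest in parental A498.

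Of the lipolysis members, *PNPLA2*, the first lipase of triglyceride breakdown, had 74.64, 62.83 and 64.32 CPM in parental 786-O and 89.28, 83.72 and 97.83 in resistant 786-O (log2 fold change 0.43, SE 0.073, adjusted p = 0.00011). Resistant A498, at 89.65, 101.2 and 102 CPM, was likewise above parental 786-O (0.54, SE 0.074, adjusted p = 1.4e-05). Parental A498 was at 96.27, 98.55 and 100.9 CPM and overlapped resistant A498 (−0.01, 95% interval −0.16 to 0.13, adjusted p = 0.87). The *PNPLA2* transcript has the highest GC content of the members (64.5%). With the GC and length trend removed, the resistant 786-O value turned to −0.09 (adjusted p = 0.15), that for resistant A498 against parental 786-O stayed at 0.34 (adjusted p = 9.3e-05), and that against parental A498 became 0.51 (adjusted p = 1.1e-06). Between the parents *PNPLA2* was lower in 786-O (−0.55, SE 0.074, adjusted p = 6.6e-06), and this also turned (0.17, adjusted p = 0.013).

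*ABHD5*, the coactivator of PNPLA2, had 36.06, 34.27 and 36.36 CPM in parental 786-O and 30.94, 50.17 and 28.78 in resistant 786-O. Replicate 2 of resistant 786-O was above all parental 786-O libraries and the other 2 were below them, and no difference was detected (log2 fold change 0.04, SE 0.15, adjusted p = 0.82). Without that library *ABHD5* was lower in resistant 786-O (−0.25, adjusted p = 1e-04) and 7 of 8 members were called. With the GC and length trend removed it was higher (0.46, adjusted p = 0.015), and this transcript has the lowest GC content of the members (37.0%). Resistant A498 had 27.81, 26.75 and 27.66 CPM, above parental A498 at 17.69, 20.59 and 19.17 (0.52, SE 0.16, adjusted p = 0.0091) and below parental 786-O (−0.38, SE 0.15, adjusted p = 0.044). Both of these calls were lost with the trend removed (0.15, adjusted p = 0.42, and −0.31, adjusted p = 0.1). The second was also lost in 8 of the 12 fits that left out 1 library, at adjusted p from 0.05 to 0.13. Parental 786-O was above parental A498 (0.90, SE 0.16, adjusted p = 9.4e-05), by 0.46 with the trend removed.

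*HILPDA*, a hypoxia-induced inhibitor of PNPLA2, had the largest absolute difference between the parental lines of the 8 tested members: 5.10, 4.97 and 5.41 CPM in parental A498 against 19.07, 17.3 and 18.72 in parental 786-O. The difference was 3.56-fold (log2 fold change 1.83, SE 0.089, adjusted p = 5.9e-11), in the direction opposite to *PLIN2*, which was lower in parental 786-O (−1.69, SE 0.047, adjusted p = 1e-13). With library size alone the order of the pair in size was the reverse (1.75 for *HILPDA* and −1.77 for *PLIN2*). In resistant 786-O *HILPDA* had 16.44, 13.65 and 15.61 CPM, all below parental 786-O, a fall by 0.27 on the log2 scale (SE 0.077, adjusted p = 0.0064) that was not called with library size alone (−0.13, adjusted p = 0.18). The resistant A498 libraries had 11.7, 10.72 and 10.99 CPM. They were 2.16-fold above parental A498 (1.11, SE 0.094, adjusted p = 4.6e-08), below parental 786-O (−0.72, SE 0.083, adjusted p = 2.1e-06) and below resistant 786-O (−0.45, SE 0.083, adjusted p = 0.00045). In GENCODE 44, 361 exon bases of *HILPDA* are shared with 2 genes on the same strand.

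The ratio of *PNPLA2* to *HILPDA* was 1.98 ± 0.130 in parental 786-O, 3.21 ± 0.243 in resistant 786-O, 4.75 ± 0.532 in resistant A498 and 10.3 ± 0.329 in parental A498, with no overlap between any pair of groups. The ratio of *ABHD5* to *PNPLA2* ran the other way between the parents, from 0.0987 ± 0.0067 in parental A498 to 0.270 ± 0.0218 in parental 786-O. In resistant 786-O it overlapped parental 786-O (0.210 ± 0.0829). With the GC and length trend removed, the log2 differences between the parents were 0.46 for *ABHD5* and 0.17 for *PNPLA2*, from 0.90 and −0.55. Those of resistant against parental 786-O were −0.09 for *PNPLA2* and −0.29 for *HILPDA*, from 0.43 and −0.27. The part of that trend in the ratios was not tested.

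**Figure D4:**
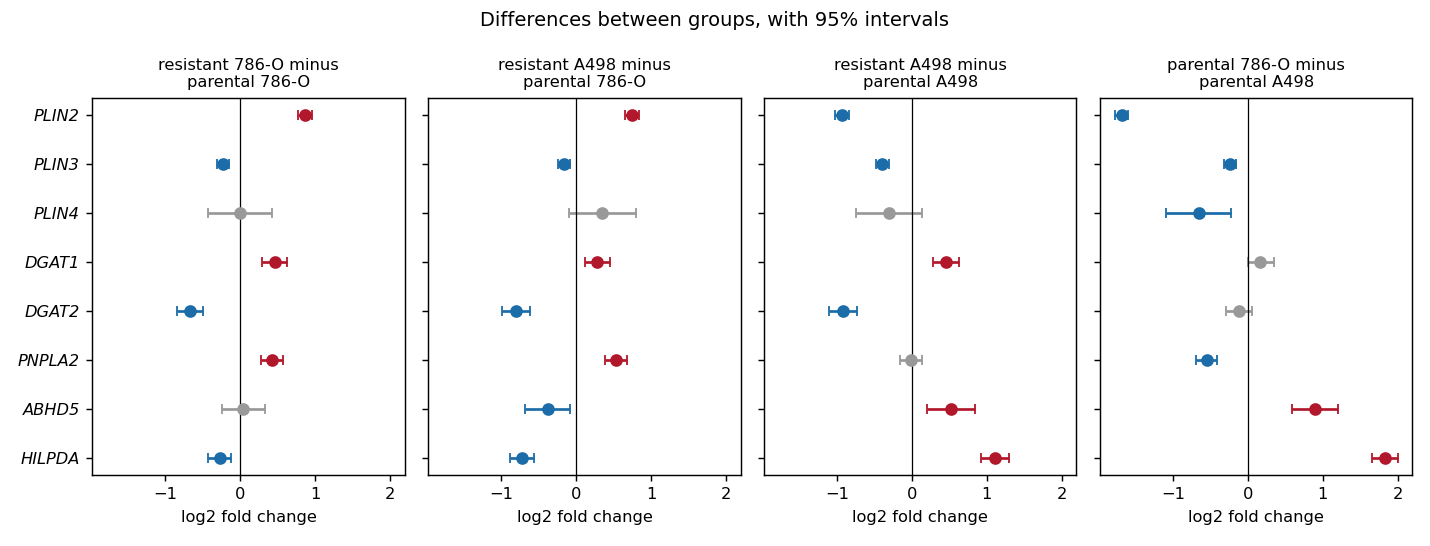
Log2 fold change (horizontal axes) with its 95% interval for the 8 tested members in 4 comparisons; red is called higher, blue called lower and grey not called at an adjusted p of 0.05. *PLIN2* lies right of 0 when parental 786-O is the reference and left of 0 in the comparisons with parental A498, and *DGAT2* lies left of 0 in all 4, where it is grey between the parents.

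Counted over the members, the libraries labelled resistant A498 had 3 higher and 4 lower than parental 786-O (of 8, background 63.6% of all genes called, 31.6% higher and 32.1% lower), and 3 higher and 3 lower than parental A498 (background 72.7%, 36.3% higher and 36.4% lower). Of all calls for resistant A498 against parental 786-O, 49.6% were in the higher direction, and 62.6% with library size alone. Parental 786-O had 2 members higher and 4 lower than parental A498 (background 74.2%, 38.2% higher and 36.1% lower). Between resistant A498 and resistant 786-O, 3 members were called, all lower in resistant A498 (*PLIN2*, *HILPDA* and *ABHD5*, background 46.1% in both directions and 23% lower), and without resistant 786-O replicate 2 the *PLIN2* and *ABHD5* calls were lost (−0.08 and −0.12). Read against these backgrounds, the counts alone are no result about the members.

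**Figure D5:**
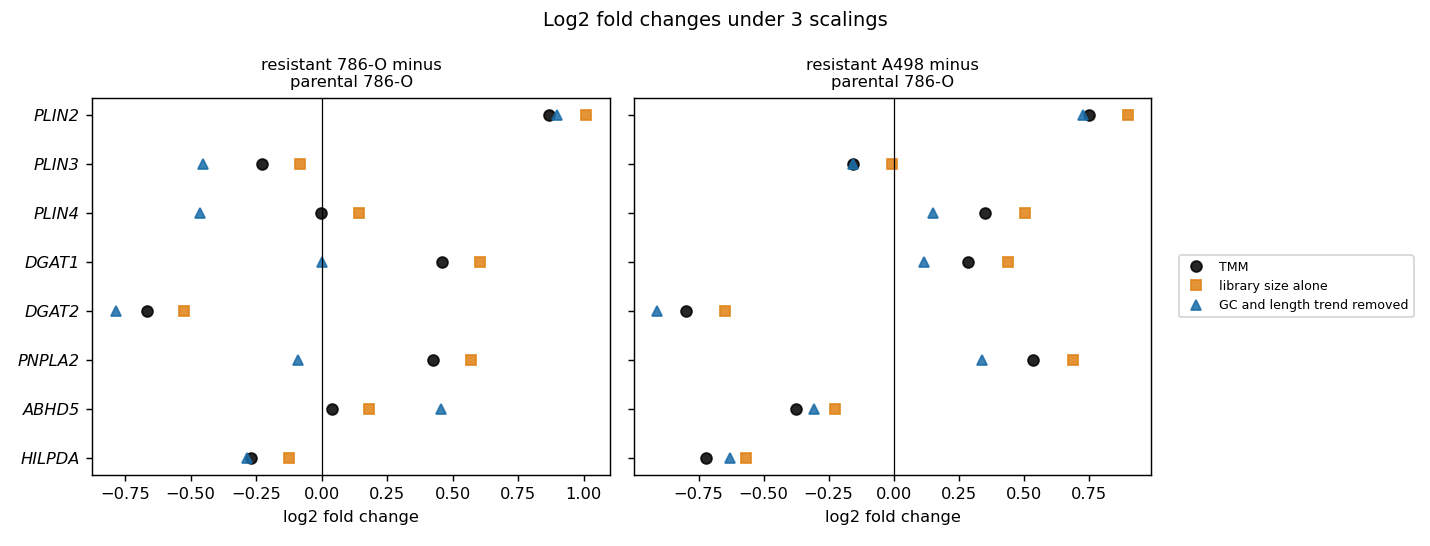
Log2 fold change (horizontal axes) of the 8 tested members with TMM scaling, with library size alone and with a GC and length trend removed. *PLIN2* and *DGAT2* keep their side of 0 in both panels, and *PNPLA2* crosses 0 in resistant 786-O minus parental 786-O when the trend is removed.

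The rest of the pathway was read from 7 lists of droplet and fatty acid genes, 60 of whose 73 genes were tested. In resistant against parental 786-O, 30 were higher and 17 lower (background 35% and 33.5% of all genes), with a median log2 fold change of 0.20 against 0.03 for all genes. In resistant A498 against parental 786-O, 22 were higher and 17 lower (background 31.6% and 32.1%, median 0.08 against 0.00), and against parental A498, 26 were higher and 27 lower (background 36.3% and 36.4%, median −0.09 against −0.00). The counts of single lists below are to be read against the same backgrounds, and with 3 to 13 tested genes a list can pass or fall short of them by a gene or so. The genes named are those with the largest called changes in each list against parental 786-O, among genes with at least 5 CPM in the higher group, and their values in resistant A498 are given against both parental lines.

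In the lipolysis list, 5 of 7 genes were higher and 2 lower in resistant 786-O, as were 5 and 2 in resistant against parental A498. *G0S2*, the other protein inhibitor of PNPLA2, fell from a mean of 87.8 ± 2.77 CPM in parental 786-O to 25.9 ± 8.0 in resistant 786-O (log2 fold change −1.76, SE 0.14, adjusted p = 3.7e-08). It was at 6.23 ± 0.563 CPM in resistant A498, against 66.0 ± 3.51 in parental A498, and was lower there than in parental 786-O (−3.82, SE 0.17, adjusted p = 8e-11) and than in parental A498 (−3.41, SE 0.17, adjusted p = 1.1e-10). *ABHD6*, a monoacylglycerol lipase, was higher in resistant 786-O (1.00, SE 0.07, adjusted p = 1e-08). It was also higher in resistant A498 than in parental 786-O (0.95, SE 0.072, adjusted p = 2.6e-08) and than in parental A498 (1.61, SE 0.078, adjusted p = 7.2e-11). *PNPLA3* was higher in resistant A498 than in parental 786-O (1.59, SE 0.16, adjusted p = 6.4e-07), where 3 genes of this list were higher and 2 lower, and than in parental A498 (0.78, SE 0.16, adjusted p = 0.00044). *G0S2* and *HILPDA*, with the same named role, were thus both called lower in the resistant groups when parental 786-O was the reference, and went opposite ways in resistant A498 when parental A498 was.

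All 4 tested genes of mitochondrial fatty acid import were higher in resistant 786-O. *CPT1A*, the entry enzyme for long-chain fatty acids, was at 18.4 ± 1.09 CPM in parental 786-O and 37.1 ± 1.24 in resistant 786-O (1.01, SE 0.061, adjusted p = 1.7e-09). *SLC25A20*, the carnitine carrier, was also higher (0.39, SE 0.11, adjusted p = 0.0046). The muscle isoform *CPT1B*, too low for the rule and named after its value was seen, had a larger change (2.31, SE 0.35, adjusted p = 3.1e-05) from 0.241 to 1.19 CPM. In resistant A498 2 of the 4 were higher than in parental 786-O, *CPT2* (0.53, SE 0.072, adjusted p = 1.4e-05) and *CPT1A* (0.48, SE 0.063, adjusted p = 8.4e-06). *SLC25A20* lay below parental 786-O in every resistant A498 library but was not called (−0.20, SE 0.11, adjusted p = 0.13). Nor was it called against parental A498 (0.12, SE 0.12, adjusted p = 0.39). In a fit to the compared libraries alone 4 were called against parental 786-O, counted in either direction. Against parental A498, which had 39.4 ± 2.38 CPM of *CPT1A*, the resistant A498 mean of 25.7 ± 0.483 was lower (−0.62, SE 0.062, adjusted p = 3.3e-07), while *CPT2* was higher there too (1.02, SE 0.076, adjusted p = 1e-08).

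Of 10 tested regulators, 6 were higher and 1 lower in resistant 786-O. *PPARGC1A*, a coactivator of mitochondrial and fatty acid oxidation genes, rose from 1.10 ± 0.237 to 7.41 ± 0.25 CPM (log2 fold change 2.73, SE 0.14, adjusted p = 2.9e-10) and was at 15.03 ± 0.554 CPM in resistant A498, above parental 786-O (3.75, SE 0.14, adjusted p = 9.4e-12) and parental A498 at 0.732 ± 0.196 CPM (4.31, SE 0.16, adjusted p = 2.5e-12). *EPAS1*, which encodes HIF-2α, was slightly higher in resistant 786-O with libraries that overlapped (0.32, SE 0.086, adjusted p = 0.0039), and by 0.21 with the GC and length trend removed. In resistant A498 it was higher than in parental 786-O (0.55, SE 0.087, adjusted p = 5e-05) and than in parental A498 (0.57, SE 0.087, adjusted p = 2.9e-05). *SREBF1*, a lipid synthesis regulator, was higher in resistant A498 than in parental 786-O (1.05, SE 0.072, adjusted p = 7.7e-09) and lower than in parental A498 (−0.77, SE 0.071, adjusted p = 1.1e-07). The list had 5 higher and 3 lower in resistant A498 against parental 786-O, where 5 in all were called with library size alone, and 4 higher and 6 lower against parental A498.

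In triglyceride synthesis upstream of the DGAT step, 5 of 11 tested genes were higher and 4 lower in resistant 786-O. *GPAT3*, which starts the glycerolipid chain, had 20.8 ± 0.234 CPM in parental 786-O, 8.76 ± 0.993 in resistant 786-O (−1.25, SE 0.075, adjusted p = 1.8e-09), 10.9 ± 0.296 in resistant A498 (−0.93, SE 0.078, adjusted p = 7.4e-08) and 61.3 ± 3.24 in parental A498 (−2.49 for resistant against parental A498, SE 0.077, adjusted p = 4e-13). The phosphatidate phosphatase *LPIN3* was higher in resistant 786-O (0.80, SE 0.11, adjusted p = 8.7e-06, and 0.53 with the trend removed). In resistant A498 *LPIN3* was not called against parental 786-O (0.06, SE 0.11, adjusted p = 0.65) and was lower than in parental A498 (−0.35, SE 0.11, adjusted p = 0.011). *LPIN1*, of the same family, was higher in resistant A498 than in parental 786-O (1.19, SE 0.057, adjusted p = 1.7e-10), where 3 genes of the list were higher and 5 lower. It was also higher there than in parental A498 (0.44, SE 0.057, adjusted p = 4.3e-06), where 7 were higher and 3 lower.

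All 3 sterol ester genes were lower in both selected groups than in parental 786-O. For resistant A498 that count fell to 1 with library size alone, without resistant A498 replicate 2 and without resistant A498 replicate 3, and against parental A498 1 was higher, 1 lower and 1 not called. *NCEH1*, a cholesteryl ester hydrolase, stood at 490 ± 2.14 CPM in parental 786-O and 192 ± 3.76 in resistant 786-O (−1.36, SE 0.044, adjusted p = 2.2e-12). It was at 171 ± 7.65 in resistant A498, lower than in parental 786-O (−1.52, SE 0.044, adjusted p = 6.8e-13) and than in parental A498 (−0.37, SE 0.044, adjusted p = 1.8e-06). *SOAT1*, which makes cholesteryl esters, was lower than in parental 786-O in resistant 786-O (−0.40, SE 0.079, adjusted p = 0.00038) and in resistant A498 (−0.26, SE 0.08, adjusted p = 0.011), and was higher in resistant A498 than in parental A498 (0.32, SE 0.08, adjusted p = 0.0024). The first *SOAT1* call was lost with the GC and length trend removed (adjusted p = 0.23), as was the third (−0.02, adjusted p = 0.84), and the second with library size alone (adjusted p = 0.24). *SOAT2*, the remaining gene of the list and too low for the rule, had group means of 0.13 to 0.49 CPM. It was lower than in parental 786-O in resistant 786-O (−1.86, SE 0.43, adjusted p = 0.0014) and in resistant A498 (−1.12, SE 0.45, adjusted p = 0.042). Against parental A498 it was not called (0.18, SE 0.57, adjusted p = 0.79).

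Of 12 tested genes for droplet assembly and coat, 3 were higher and 3 lower in resistant 786-O, and 3 in all were called without parental 786-O replicate 1 or without parental 786-O replicate 2. *LDAF1*, a partner of seipin in droplet formation, rose from 9.25 ± 0.446 to 27.8 ± 5.64 CPM (1.59, SE 0.11, adjusted p = 8.2e-09) and was also above parental 786-O in resistant A498 (1.12, SE 0.12, adjusted p = 6.3e-07), which was below parental A498 (−0.66, SE 0.11, adjusted p = 5.9e-05). *RAB18*, a small GTPase found on droplets, was lower in resistant 786-O (−0.82, SE 0.067, adjusted p = 5e-08, and −0.40 with the GC and length trend removed). It was also lower in resistant A498 than in parental 786-O (−0.43, SE 0.068, adjusted p = 4.7e-05) and than in parental A498 (−0.29, SE 0.068, adjusted p = 0.0014). *CIDEB* was lower in resistant A498 than in parental 786-O (−0.62, SE 0.1, adjusted p = 9.2e-05), where 4 were higher and 3 lower, and than in parental A498 (−0.43, SE 0.11, adjusted p = 0.0022), where 3 were higher and 8 lower. The last *CIDEB* call was lost with the trend removed (adjusted p = 0.67).

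Of 13 genes for fatty acid uptake and activation, 7 were higher and 4 lower in resistant 786-O, and 5 higher and 1 lower in resistant A498 against parental 786-O. In the latter 11 were called in all with library size alone and 10 in a fit to the compared libraries, and against parental A498 5 were higher and 6 lower. *VLDLR*, a lipoprotein receptor, was higher than parental 786-O in both (0.93, SE 0.12, adjusted p = 7.3e-06, and 1.48, SE 0.12, adjusted p = 6.2e-08). It was also higher in resistant than in parental A498 (0.42, SE 0.12, adjusted p = 0.0051), a call lost with the trend removed (0.13, adjusted p = 0.31). *ACSL1*, which activates fatty acids, was lower in resistant 786-O (−0.73, SE 0.049, adjusted p = 5.8e-09). In resistant A498 *ACSL1* was not called against parental 786-O (0.06, SE 0.049, adjusted p = 0.29) and was lower than in parental A498 (−0.52, SE 0.049, adjusted p = 1.7e-07). *FABP5*, a fatty acid binding protein, was lower in resistant A498 than in parental 786-O (−0.77, SE 0.11, adjusted p = 2.7e-05) and than in parental A498 (−0.44, SE 0.11, adjusted p = 0.0028).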

How the data were processed

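The authors prepared stranded, poly(A)-selected libraries (TruSeq Stranded mRNA), trimmed reads with Trimmomatic 0.36.6, aligned them to GRCh38 with HISAT2 2.1.0 and deposited raw read counts per gene from featureCounts 1.6.3 over the exons of GENCODE 33, with strand used. Which library ran on which of the 2 instrument types is not given in the sources used here. Gene identifiers were joined to symbols, exon lengths and GC content of GENCODE 44, and 45283 of 45478 rows had a symbol. Counts were fitted in edgeR 4.0.16 (R 4.3.3) with TMM scaling, filterByExpr and the quasi-likelihood F test, 12 libraries in 1 fit with 4 group means. P-values were Benjamini-Hochberg adjusted over the 19929 genes tested, with a threshold of 0.05. Each SE is the absolute log2 fold change divided by the square root of F. Intervals used a normal quantile of this SE, so they are narrower than the F test implies. The test was also run on simulated counts in which few genes changed, evenly in both directions. A far larger share of genes was called in these data, so that run does not check the scaling or error rate here. RPKM used TMM-scaled library sizes and the union of exons. The labels give no separate cultures, so p-values measure the spread between these libraries, which may be technical. The members and lists were chosen with earlier results of these data known. Named pathway genes are, for each list, up to 2 with the largest absolute change among those called with at least 5 CPM in the higher group, in each of resistant 786-O and resistant A498 against parental 786-O. The 3 genes most like *PLIN2* were chosen by Pearson r. Alternatives were library size alone, DESeq2 1.42.0 (size factors and Wald test), other filters, a replicate block, removal of a GC and length trend, a fit to the compared libraries alone, a fold minimum, an unadjusted 2-sample test of raw counts as in the study's methods, and leaving out each library. Promoter sequences are from RefSeq (GRCh38.p14), where 7 of the 10 members matched.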

Additional observations from a re-analysis of the deposited data

Results flagged for a closer look

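The change from parental A498 to resistant A498 differed from the change from parental 786-O to resistant 786-O for 4 of 8 tested members (edgeR interaction contrast, background 68.3% of all genes). The difference, A498 pair minus 786-O pair on the log2 scale, was −1.80 (SE 0.066, adjusted p = 5.4e-12) for *PLIN2*, which was lower in resistant A498 than in parental A498 and higher in resistant 786-O than in parental 786-O in every library. It was 1.38 (SE 0.12, adjusted p = 1e-07) for *HILPDA*, with the opposite signs. It was −0.44 (SE 0.1, adjusted p = 0.0016) for *PNPLA2* and −0.17 (SE 0.061, adjusted p = 0.023) for *PLIN3*, and both turned to the other sign with the GC and length trend removed (0.60, adjusted p = 9e-06, and 0.40, adjusted p = 5.1e-06). These contrasts take the label resistant A498 as given, and those libraries resembled parental 786-O and resistant 786-O more than parental A498. For *DGAT1* (−0.01, 95% interval −0.25 to 0.24, adjusted p = 0.97) and *DGAT2* (−0.25, interval −0.51 to 0.01, adjusted p = 0.1) no difference was called with TMM scaling. *DGAT2* was called with library size alone (−0.33, adjusted p = 0.038) and with at least 10 counts in every library (−0.33, adjusted p = 0.033), and *DGAT1* with the GC and length trend removed (0.94, adjusted p = 4.5e-06). Groups of 3 were not tested for outlying libraries. Of the fits that left out 1 library, the one without resistant 786-O replicate 2 called the most genes in every comparison. It called 14880 of 20228 genes in resistant against parental 786-O, where the main fit called 13643 of 19929. Between the parents it called 16038, where the main fit called 14793. All groups share the fit, so that library also bears on p-values of comparisons without it.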

How the results depend on the processing

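The counts of called members in the order resistant against parental 786-O, resistant against parental A498, resistant A498 against parental 786-O, parental 786-O against parental A498, resistant A498 against resistant 786-O, and the difference of changes were 6, 6, 7, 6, 3 and 4. With a log2 fold change over 1 also required they were 0, 1, 0, 2, 0 and 2. With the unadjusted 2-sample test of raw counts, which does not scale for depth, the first 5 were 3, 2, 4, 3 and 6. For resistant A498 against resistant 786-O the count was 6 with the GC and length trend removed and 1 with the compared libraries alone. Leaving out 1 library gave 6 to 7, 6 to 6, 5 to 7, 5 to 7, 1 to 3 and 3 to 5.

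*PLIN4* in resistant against parental 786-O lay near 0 and took the other sign at 0.14 with library size alone, 0.019 with DESeq2 size factors, 0.054 with at least 10 counts in every library, 0.03 with the compared libraries alone, 0.01 with DESeq2's Wald test, 0.18 on raw counts, and from −0.091 to 0.118 with 1 library left out, never called. *PNPLA2* in resistant against parental A498 became 0.054 with library size alone, 0.028 with no filter, and −0.030 to 0.074 with 1 library left out. The difference of changes for *DGAT1* became 0.042 with no filter and −0.099 to 0.070 with 1 library left out. *ABHD5* in resistant against parental 786-O ranged from −0.25 to 0.21 with 1 library left out, negative without resistant 786-O replicate 2. Of 12 fits that left out 1 library, the call was lost in 10 for *PLIN2* and 5 for *ABHD5* in resistant A498 against resistant 786-O, in 8 for *ABHD5*, 2 for *PLIN3* (without resistant A498 replicate 1 or 2) and 2 for *SOAT1* (without resistant A498 replicate 2 or 3) in resistant A498 against parental 786-O, and in 6 for *PLIN3* in the difference of changes. Without resistant 786-O replicate 2, calls were gained for *ABHD5* in the difference of changes (0.79, adjusted p = 1.3e-10), for *DGAT1* (−0.28) and *PLIN3* (0.10) in resistant A498 against resistant 786-O, and for *DGAT1* between the parents (0.18). Without parental A498 replicate 3 *DGAT2* was called in the difference of changes (−0.32, adjusted p = 0.045).

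Removal of the GC and length trend turned *PNPLA2* in resistant against parental 786-O (−0.092), *PLIN4* (0.15), *PNPLA2* (0.51) and *SOAT1* (−0.019) in resistant against parental A498, *PLIN3* (0.10), *DGAT2* (0.073) and *PNPLA2* (0.17) in parental 786-O against parental A498, and *DGAT1* (0.12) in resistant A498 against resistant 786-O. It also turned the differences of changes of *PLIN3* (0.40), *PLIN4* (0.61), *DGAT1* (0.94), *PNPLA2* (0.60) and *ABHD5* (−0.30). Raw counts turned, in resistant A498 against parental 786-O, *PLIN4* (−0.38), *DGAT1* (−0.44), *PNPLA2* (−0.20), *CPT1A* (−0.24) and *CPT2* (−0.21), in parental 786-O against parental A498, *PLIN3* (0.31) and *DGAT2* (0.43), and in resistant A498 against resistant 786-O, *PLIN3* (−0.84), *PLIN4* (−0.56) and *PNPLA2* (−0.81). The cause of these changes was not tested.

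Deviations of same-numbered libraries from their group means correlated from −0.184 to 0.201. Differently numbered libraries were not compared, so these values do not settle whether libraries of the same number were handled together. With the replicate block, 13497 genes were called in resistant against parental 786-O and 14389 in resistant against parental A498, where 13643 and 14496 were called without it. The block gave *PLIN4* in resistant 786-O a value of 0.005 (adjusted p = 0.99), lost the *PLIN2* call of resistant A498 against resistant 786-O (−0.12, adjusted p = 0.066) and added *ABHD5* to the difference of changes (0.51, adjusted p = 0.04). Low counts limit *PLIN4*, *PLIN5* and *CIDEC*.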

Other observations

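Over the 12 libraries, the genes whose log2 level followed *PLIN2* most closely, of the 11878 averaging 5 CPM or more, were *MEIS3* (Pearson r = 0.9973), *HSD17B14* (0.9968) and *PCDH1* (0.9965). A constant was added to each CPM before the log. It shrinks differences at low levels, such as those of these genes in parental 786-O. The points fall into 4 groups of 3. The likeness is thus one of the order of 4 group means and of their spacing on that scale. *PCDH1*, a protocadherin, had 72.0 ± 2.94 CPM (SD, n = 3) in parental A498, 9.07 ± 2.37 in resistant 786-O, 7.28 ± 0.244 in resistant A498 and 0.193 ± 0.0753 in parental 786-O. *MEIS3*, a homeobox factor, had 20.0 ± 0.345, 4.19 ± 0.698, 2.83 ± 0.263 and 0.0804 ± 0.0293 CPM in the same order of groups. *HSD17B14*, a hydroxysteroid dehydrogenase, had 16.1 ± 0.954, 3.72 ± 0.792, 3.16 ± 0.333 and 0.396 ± 0.169 CPM.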
